A study of Mus musculus with 4 samples.

Results

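Immediate early genes are transcribed within minutes of a stimulus such as growth factor, stress or mechanical handling, without new protein synthesis, and tissue dissociation is a known trigger. The 10 genes described here were taken by symbol: the AP-1 and Egr transcription factors Fos, Fosb, Jun, Junb, Atf3 and Egr1, the early genes Ier2 and Klf6, and the feedback genes Dusp1 and Zfp36. All 10 were found among the 21878 rows of the deposited tables, and all 10 were among the 13428 genes that passed the filter on low counts. In HACY relative to CCL4 libraries, Fos, Dusp1 and Zfp36 rose and Junb fell, so the set did not move in one direction.

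RNA came from liver cells of C57BL/6 mice, collected on magnetic columns (MACS) with the surface protein CD24 and labelled as hepatocytes. The mice are given as 6 to 8 weeks of age, and as 8 weeks old when injected. CCL4 mice (2 libraries) received carbon tetrachloride, a liver toxin, at 2 ml/kg in olive oil into the abdomen, 2 times a week for 6 weeks. HACY mice (2 libraries) received Y-27632, a kinase inhibitor, A-83-01, which blocks type I receptors for TGF-beta, and CHIR99021, which blocks the kinase GSK3, by injection 3 times a week for 6 weeks. It is not clear from the labels if HACY mice also had carbon tetrachloride, and with no untreated group every rise or fall below is HACY relative to CCL4 only. Neither separate animals nor a batch is named, so p-values measure the spread between these libraries, which may be technical.

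AP-1 is a dimer of a Jun protein with a Fos or Atf protein, and it binds regulatory DNA of genes for growth, stress and inflammation. Egr1 is a zinc finger factor induced by the same kinases. The response ends itself: Dusp1 is a phosphatase that inactivates the p38, JNK and ERK kinases, and Zfp36 (tristetraprolin) binds AU-rich elements of short-lived messages and promotes their decay. In liver, Fos, Jun and Egr1 are known for their rapid rise after partial hepatectomy and after toxic injury, and Jun is needed for normal regeneration.

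Library totals were 18467299 to 19314219 counts. Of the 13428 tested genes, 1576 passed an edgeR adjusted p of 0.05, which is 11.7% (8.19% higher and 3.54% lower in HACY). The split of 1100 higher and 476 lower was 856 and 1355 with library size alone as the scale, where the median of all genes was -0.18 instead of -0.01 on the log2 scale. It was 1273 and 991 with offsets for GC content and length, and 605 and 587 on the deposited FPKM. Among the 10 genes 3 rose and 1 fell, 4 of 10 against the 11.7% of all tested genes. Other tools called 5 of the 10 (DESeq2, against 15.5% of all genes) and 3 of the 10 (limma-voom, 10.9%). Without a filter on low counts 5 were called (11.2%), with library size alone 3 (16.5%), with upper quartile scaling 5 (11.5%), with GC content and length offsets 3 (17.4%), with a replicate block 2 (9.12%) and on FPKM 2 (10.8%), while RLE scaling (11.8%) and a stricter filter (12.7%) left 4. Leaving out HACY replicate 1 left 1 call (4.57% of all genes) and HACY replicate 2 left 2 (5.65%). Leaving out a CCL4 library gave 4 for replicate 1 (10.5%) and 5 for replicate 2 (22.2%). Dusp1 was in every one of these counts. Groups did not overlap in CPM (read counts relative to the library total, scaled by the TMM method) for 8 of the 10, against 60.8% of all tested genes. The median log2 fold change of the 10 was 0.33. In bulk RNA, fewer cells of a type and less RNA per cell cannot be told apart.

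Levels between genes were compared as FPKM, which is scaled to transcript length, averaged over the 4 libraries. Klf6 was the most abundant at 94.4 FPKM, followed by Ier2 at 86.3, Junb at 85.4 and Jun at 67.4. These levels lie above those of 93.9% to 95.8% of tested genes. Dusp1 followed at 44.7 FPKM, Zfp36 at 31.1, Egr1 at 24.4 and Atf3 at 15.1. Fos stood at 4.86 FPKM, above 42.5% of tested genes, and Fosb was lowest at 1.94, above 25.7%. Egr1, Atf3, Fos and Fosb kept this order in all 4 libraries with ranges that did not overlap. Above them neighbours overlapped: Klf6 and Ier2 each led in 2 of the 4 libraries, as did Ier2 and Junb, while Junb exceeded Jun in 4 of 4.

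Fos, the inducible partner of Jun (chromosome 12, 85473890 to 85477273, plus strand, GRCm38), had 21.0 and 13.4 CPM in HACY replicates 1 and 2, and 7.43 and 8.18 in CCL4 replicates 1 and 2. Both HACY libraries lay above both CCL4 libraries, and the HACY libraries differed more from each other than the CCL4 libraries did. The mean was 17.2 ± 5.40 CPM in HACY and 7.81 ± 0.530 in CCL4 (SD, n = 2), a 2.20-fold rise (log2 1.14, SE 0.27, edgeR adjusted p = 0.0397). The Fos call depended on single libraries: leaving out HACY replicate 1 gave 0.77 (adjusted p = 0.338), and leaving out CCL4 replicate 1 gave 1.07 (0.0880). It was also lost with library size alone (0.97, adjusted p = 0.0510), limma-voom (1.11, 0.0540) and FPKM (0.77, 0.0743).

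**Figure D1:**
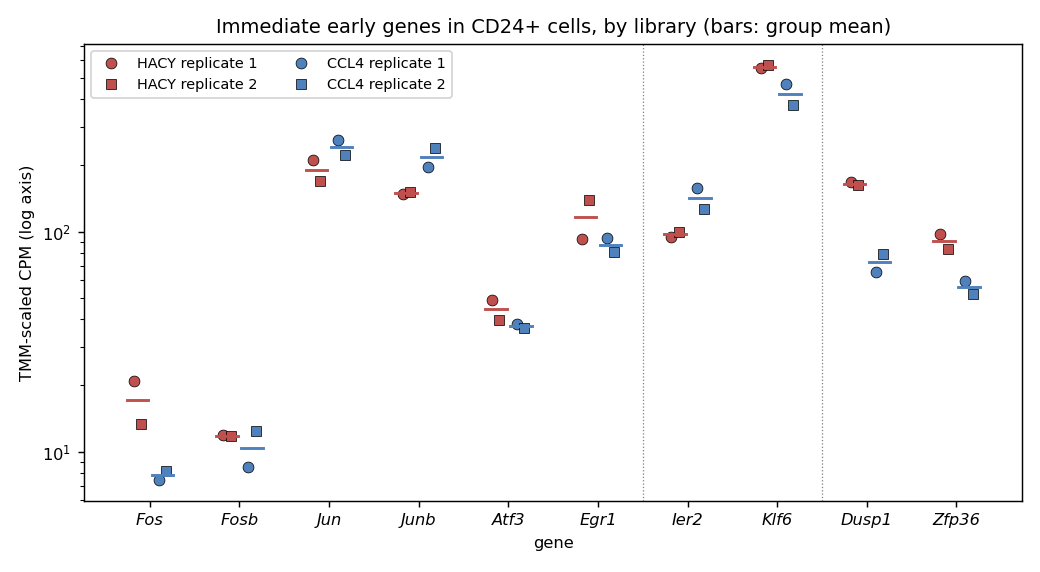
CPM (log axis) of the 10 genes in each library, with HACY in red, CCL4 in blue, and bars at group means. Dotted lines separate the AP-1 and Egr factors, Ier2 and Klf6, and the feedback genes. Dusp1 stands at 162 and 168 in HACY against 65.5 and 79.5 in CCL4, while Jun, Junb and Ier2 are higher in CCL4.

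Junb, a Jun family factor that can restrain Jun (chromosome 8, 84974484 to 84978718, minus strand), went the other way. It had 148 and 151 CPM in HACY replicates 1 and 2, and 196 and 239 in CCL4 replicates 1 and 2, so the groups did not overlap and the HACY libraries were nearly equal. The fall was 1.46-fold (log2 -0.54, SE 0.14, edgeR adjusted p = 0.045). It no longer passed without HACY replicate 1 (-0.53, adjusted p = 0.237) or HACY replicate 2 (-0.56, 0.205), and with GC content and length offsets it was -0.23 (0.229). The longest Junb transcript has 62.6% GC, against a median of 49.8% over tested genes. Exons of Prdx2, a peroxidase gene, overlap Junb on the other strand, and the strand setting of the counting is not given. Prdx2 had 130 to 155 CPM over the 4 libraries and a log2 fold change of -0.03 (SE 0.13).

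The other 4 factors did not pass the threshold. Jun, the main partner in AP-1 (chromosome 4, 95049034 to 95052222), had 211 and 169 CPM in HACY and 260 and 224 in CCL4. All HACY values of Jun were below the CCL4 values, but the log2 fold change of -0.35 (SE 0.15, edgeR adjusted p = 0.171) had a 95% interval from -0.70 to 0.0048. Egr1 (chromosome 18, 34859823 to 34864984) had 92.9 and 139 CPM in HACY and 93.6 and 80.4 in CCL4. HACY replicate 2 alone was high, and the groups overlapped (log2 0.41, SE 0.20, adjusted p = 0.21, interval -0.06 to 0.88). Without HACY replicate 2 the Egr1 value was 0.09. Within the HACY pair, Egr1 and Fos went in opposite directions, with replicate 1 minus replicate 2 at -0.58 for Egr1 and 0.65 for Fos on the log2 scale.

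Atf3, a stress-induced factor (chromosome 1, 191170296 to 191218039), had 49.0 and 39.7 CPM in HACY and 38.0 and 36.4 in CCL4, a log2 fold change of 0.25 (SE 0.16, edgeR adjusted p = 0.342, interval -0.13 to 0.64). The Atf3 groups were separate in CPM but overlapped in FPKM. Fosb, a Fos paralog (chromosome 7, 19302696 to 19310051), had 11.9 and 11.7 CPM in HACY, between the 8.49 and 12.4 of the CCL4 libraries. Its log2 fold change was 0.18 (SE 0.26, adjusted p = 0.685), and the interval from -0.42 to 0.78 leaves changes of either sign within reach.

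Ier2, a small nuclear early gene product (chromosome 8, 84661331 to 84662852, a single exon), had 94.7 and 99.9 CPM in HACY and 158 and 126 in CCL4. Both HACY libraries were lower, and the log2 fold change of -0.55 (SE 0.15) had an edgeR adjusted p of 0.0528, just outside the threshold. Ier2 passed with DESeq2 (-0.56, adjusted p = 0.0200), upper quartile scaling (-0.61, 0.0392), library size alone (-0.72, 0.0217), no filter (-0.55, 0.0325) and without CCL4 replicate 2 (-0.70, 0.0096), and it was -0.40 (0.229) with GC content and length offsets. Klf6, a zinc finger factor (chromosome 13, 5861482 to 5870394), had 551 and 573 CPM in HACY and 468 and 376 in CCL4. Its log2 fold change was 0.41 (SE 0.14, adjusted p = 0.0974), and 0.58 (0.0418) without CCL4 replicate 1.

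Both feedback genes rose. Dusp1 (chromosome 17, 26505590 to 26562128, minus strand) had 168 and 162 CPM in HACY replicates 1 and 2, and 65.5 and 79.5 in CCL4 replicates 1 and 2. The groups were far apart relative to the spread within each, and the means were 165 ± 4.03 and 72.5 ± 9.88 CPM (SD, n = 2). The rise was 2.27-fold (log2 1.18, SE 0.14, edgeR adjusted p = 0.0036), and it was called under 14 of 14 alternatives, between 1.01 and 1.33. Ergic1, which shares exonic bases with Dusp1 on the opposite strand, had 252 and 298 CPM in HACY and 219 and 268 in CCL4 (log2 0.18, SE 0.15, adjusted p = 0.468).

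Zfp36 (chromosome 7, 28376784 to 28380253, minus strand) had 97.3 and 83.5 CPM in HACY and 59.7 and 52.1 in CCL4, with no overlap. The rise was 1.62-fold (log2 0.69, SE 0.15, edgeR adjusted p = 0.0264). It no longer passed without HACY replicate 1 (0.57, adjusted p = 0.218), without HACY replicate 2 (0.80, 0.0579), with library size alone (0.52, 0.0567) or on FPKM (0.53, 0.0781). The antisense genes Junos, at Jun, and Gm44710, at Zfp36, were not analysed here.

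**Figure D2:**
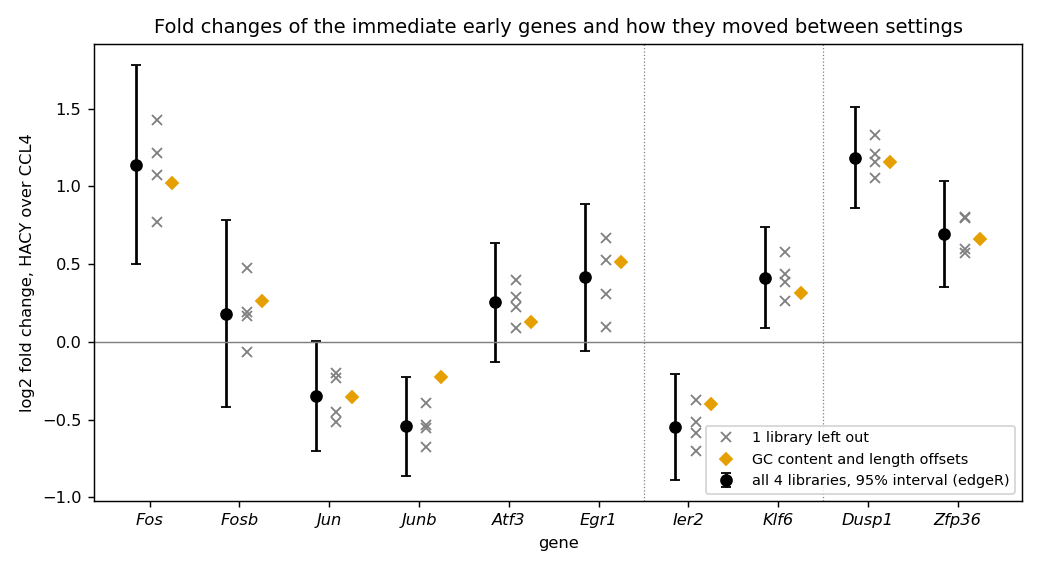
Log2 fold change of HACY over CCL4 for each gene with its 95% interval (black), with 1 library left out (grey crosses) and with GC content and length offsets (orange). Dusp1 stays between 1.05 and 1.33 when a library is left out, Junb moves from -0.54 to -0.23 with the offsets, and Fosb lies on both sides of 0.

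Because Fos, Dusp1 and Zfp36 rose while Junb fell, the sequence before the start of these 4 genes is shown, from RefSeq on GRCm38.p6, 5′ to 3′ on the strand of the gene. Bases inside an annotated exon of the gene were left out, except for Zfp36, where the whole stretch is annotated exon. The Zfp36 entry shows 30 of these exonic bases around its CArG box, the core of the serum response element. Capitals mark the TATA box (TATAAA), the CArG box, the cAMP response element TGACGTCA and its first bases TGACG on either strand, which overlap where the full element is present.
Fos, chr12:85473640-85473889, plus strand: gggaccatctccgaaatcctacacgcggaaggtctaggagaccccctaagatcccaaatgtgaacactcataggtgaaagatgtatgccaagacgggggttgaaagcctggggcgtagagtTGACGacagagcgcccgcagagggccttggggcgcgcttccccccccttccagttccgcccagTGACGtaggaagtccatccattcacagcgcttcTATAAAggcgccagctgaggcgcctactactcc
Dusp1, chr17:26508520-26508722, minus strand: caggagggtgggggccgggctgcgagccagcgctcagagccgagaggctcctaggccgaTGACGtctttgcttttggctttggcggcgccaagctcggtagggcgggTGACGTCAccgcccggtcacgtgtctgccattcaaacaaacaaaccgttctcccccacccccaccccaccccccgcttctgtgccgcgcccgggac
Zfp36, chr7:28379267-28379296, minus strand: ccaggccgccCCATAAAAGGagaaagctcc
Junb, chr8:84978749-84978998, minus strand: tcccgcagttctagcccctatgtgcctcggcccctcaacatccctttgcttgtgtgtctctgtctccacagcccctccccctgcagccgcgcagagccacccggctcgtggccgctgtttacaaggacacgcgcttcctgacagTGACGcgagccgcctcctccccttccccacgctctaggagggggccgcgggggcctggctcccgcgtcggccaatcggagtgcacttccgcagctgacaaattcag

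A window of 300 bases (250 before to 50 after the RefSeq start) was available for 8 of the 10 genes and was searched on both strands. Egr1 and Ier2 had no window, and bases further upstream were not searched for any gene. Among the 8 windows, that of Dusp1 alone held TGACGTCA, at position -143 from its start, an element found in 1.79% of 32817 windows of the same length. That of Zfp36 alone among the 8 held a CArG box, at position -58, found in 1.63% of windows. The RefSeq starts of Dusp1 (26508472) and Zfp36 (28379228) lie downstream of their GENCODE starts (26562128 and 28380253), inside the gene locations given above. A TATAAA stood at position -33 of Fos and at position 1, the RefSeq start, of Junb, whose GENCODE start lies 30 bases further downstream; 13.6% of windows hold one. The AP-1 site, TGACTCA or TGAGTCA, was in 0 of the 8 windows and in 5.2% of all. The shorter TGACG, added after the other motifs had been searched, was in 5 of 8 windows (Fos, Fosb, Junb, Atf3 and Dusp1) and in 20.8% of all windows. The 8 windows had 58.7% (Fos) to 68.3% (Fosb) GC, against a median of 52.7% over all windows. The part of base composition in these counts was not tested. A match describes letters in a window, not a bound site.

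The ratio of the factors to the feedback genes was lower in HACY. By mean log2 CPM both sets were higher in HACY, the feedback genes by more. Mean log2 CPM of Dusp1 and Zfp36 was 6.93 in HACY and 5.99 in CCL4, a difference of 0.94. Mean log2 CPM of the 6 factors was 5.85 and 5.73 in HACY replicates 1 and 2 and 5.58 and 5.65 in CCL4 replicates 1 and 2, a difference of 0.17, so by this measure the factors were not lower in HACY. Their summed CPM, set mainly by Jun, Junb and Egr1, went the other way. The 6 AP-1 and Egr factors summed to 533 and 524 CPM in HACY replicates 1 and 2, and to 604 and 600 in CCL4 replicates 1 and 2. Dusp1 and Zfp36 together summed to 265 and 246 CPM in HACY, and to 125 and 132 in CCL4. The ratio of these sums was therefore 2.01 and 2.14 in HACY and 4.82 and 4.56 in CCL4. As mean log2 CPM of the factors minus that of the feedback genes, the values were -1.15 and -1.13 in HACY and -0.39 and -0.36 in CCL4. The mean difference was -0.77, against a pooled replicate SD of 0.0212, and the library scale cancels within each library. That SD rests on 2 libraries a group, and opposite moves of Fos and Egr1 between the HACY replicates partly cancel in the mean. Over all other tested genes the median log2 ratio differed by -1.19 to Dusp1 and by -0.69 to Zfp36. A lower ratio to the feedback genes was therefore not particular to the factors. The log2 difference was -1.18 for the ratio of sums, in which the abundant Jun, Junb and Egr1 weigh most. No test is given for this score, since the members were chosen with earlier results known.

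The ratio of counts to Dusp1, gene by gene, was lower in both HACY libraries than in both CCL4 libraries for 7 of 8 genes. Since Dusp1 itself rose, this held for 89.0% of all other tested genes, whose median log2 ratio to Dusp1 differed by -1.19, so the count is near the background. Junb had 0.882 and 0.933 reads per Dusp1 read in HACY and 3.0 in each CCL4 library, and Jun had 1.26 and 1.05 against 3.96 and 2.82. Fos was the exception, with 0.125 and 0.0827 against 0.113 and 0.103. Relative to Zfp36 the ratio was lower in HACY for 6 of 8 genes, against 74.6% of all other tested genes. For Egr1 that ratio overlapped between groups, and for Fos it was higher in HACY, at 0.216 and 0.160 against 0.124 and 0.157. Over group means the log2 ratio to Dusp1 differed by -0.085 for Fos, -1.54 for Jun, -1.73 for Junb and -1.73 for Ier2.

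**Figure D3:**
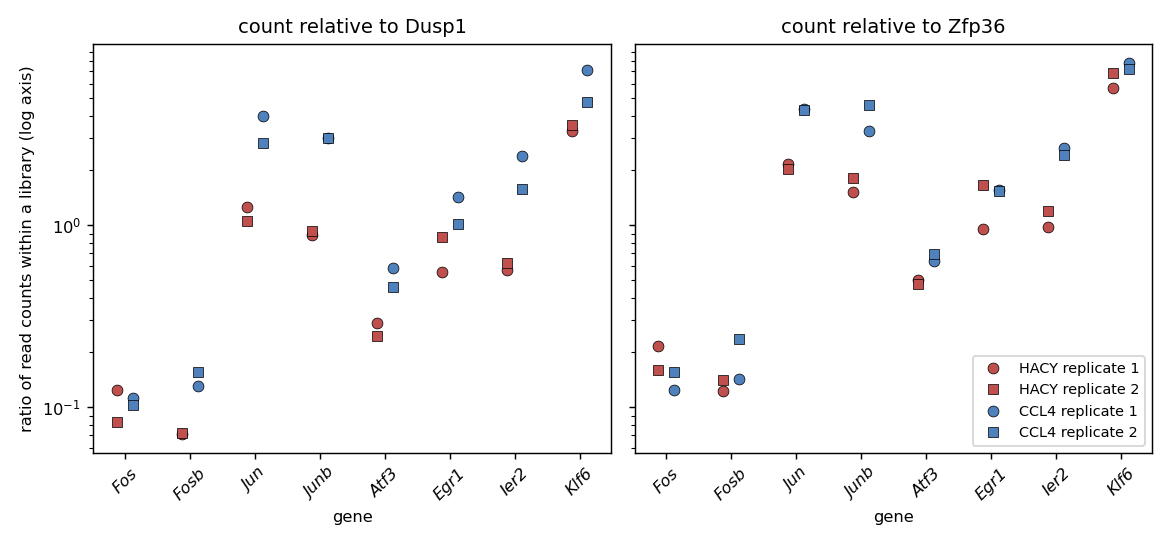
Read count of each gene divided by that of Dusp1 (left) or Zfp36 (right) in the same library, on a log axis, for HACY (red) and CCL4 (blue). Counts are not scaled to length, so only the same gene may be compared between libraries. Junb relative to Dusp1 is 0.882 and 0.933 in HACY and 3.0 in both CCL4 libraries, whose symbols coincide.

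Fos was a small part of its own family. Fosl1, the Fra-1 subunit, which is itself induced through AP-1, had 71.4 and 59.3 FPKM in HACY and 117 and 75.6 in CCL4, and it was the most abundant Fos family transcript in each library. Fos made up 8.45% and 6.29% of the FPKM summed over Fos, Fosb, Fosl1 and Fosl2 in HACY, and 2.39% and 3.65% in CCL4. Summed over Jun, Junb and Jund, the Jun family had 161 and 151 FPKM in HACY and 229 and 248 in CCL4, with no overlap. Jund, a Jun paralog, had 123 and 139 CPM in HACY and 169 and 224 in CCL4 (log2 -0.58, SE 0.16, edgeR adjusted p = 0.0614). With GC content and length offsets the Jund value was 0.04 (adjusted p = 0.862), while DESeq2 gave -0.59 (0.0159). For Fosl1 the CPM groups overlapped (-0.46, SE 0.21, adjusted p = 0.191).

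**Figure D4:**
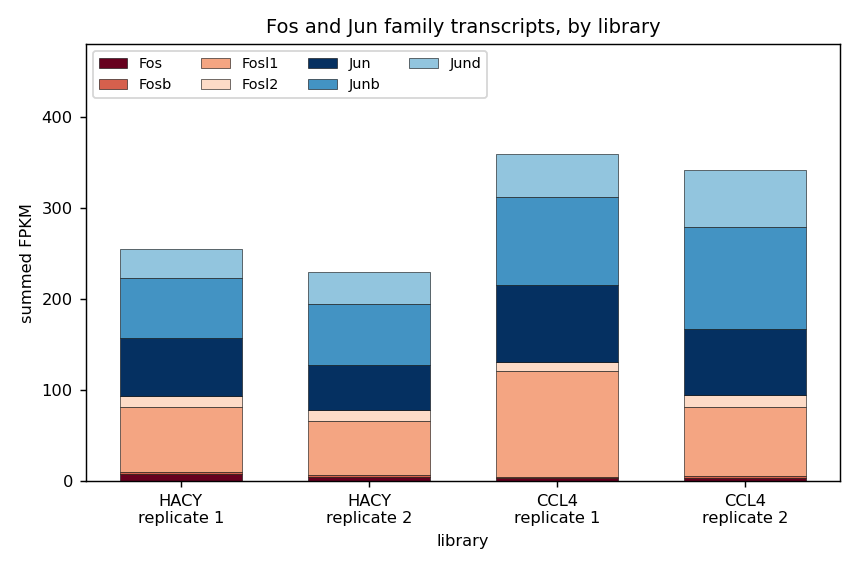
Summed FPKM of Fos family (red shades) and Jun family (blue shades) transcripts in each library, as stacked bars from 0. Fos and Fosb are thin bands at the base, Fosl1 is the widest of the Fos family at 59.3 to 117 FPKM, and the Jun family sums to 151 and 161 in HACY against 229 and 248 in CCL4.

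The wider response was read from 6 further lists, of 89 genes, of which 88 were tested. There were 6 rises and 5 falls, or 12.5% of these genes, near the 11.7% of all tested genes. The counts were 5 rises and 13 falls with library size alone (20.5% of these genes), 8 and 10 with DESeq2 (20.5%), 8 and 9 with GC content and length offsets (20.2%) and 8 and 9 without a filter (19.3%). The medians of the effector, heat shock and upstream lists lay close to 0 and changed sign between settings. With library size alone they were -0.12, -0.08 and -0.11. The effector median was also negative with upper quartile scaling, with GC content and length offsets, on FPKM and without CCL4 replicate 1, the upstream median on FPKM, and the heat shock median without HACY replicate 1. Of 9 other AP-1 subunits 1 rose and none fell (median log2 fold change 0.30). The rise was Batf2, a factor induced by interferon, with 7.32 and 4.88 CPM in HACY and 2.12 and 1.77 in CCL4 (log2 1.64, SE 0.36, edgeR adjusted p = 0.0306; 1.32 and 0.257 without HACY replicate 1). Of 12 other early transcription factors 1 fell and none rose (median -0.40). The fall was Klf10, with 94.2 and 88.8 CPM in HACY and 286 and 198 in CCL4 (-1.40, SE 0.18, edgeR adjusted p = 0.0052). It was called in 14 of 14 alternatives. Egr2 had 1.18 (SE 0.32, adjusted p = 0.0570), Myc -0.40 (SE 0.12, 0.0717) and Nr4a3 0.76 (SE 0.39, 0.238). Egr4 had 0 counts in each library, which allows up to 0.155 to 0.162 CPM.

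Among 21 other early effectors 4 rose and 2 fell (median 0.05). Gadd45b, a stress-response gene, had 39.3 and 31.3 CPM in HACY and 90.4 and 78.5 in CCL4 (log2 -1.26, SE 0.17, edgeR adjusted p = 0.0052). It was called in 14 of 14 alternatives. Rgs1, a regulator of G protein signalling in leukocytes, rose by 1.40 (SE 0.27), Sgk1, a kinase, by 0.81 (SE 0.17) and Trib1, a pseudokinase, by 0.66 (SE 0.13). Errfi1, an inhibitor of the EGF receptor, rose by 0.60 and Plk2 had -0.51, both named because they complete the count. Rgs1 was lost without HACY replicate 1 (adjusted p = 0.0719), Sgk1 without HACY replicate 1 or CCL4 replicate 1 (0.211 and 0.0658), and Trib1 without either HACY library (0.103 and 0.156). Errfi1 did not pass after removal of HACY replicate 1 (0.0508), HACY replicate 2 (0.223) or CCL4 replicate 1 (0.0747). Plk2 did not pass after removal of HACY replicate 1 (0.314), HACY replicate 2 (0.145) or CCL4 replicate 2 (0.0737).

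Other feedback genes did not share the rise of Dusp1 and Zfp36 as a list, with 1 rise and 2 falls among 19 and a median of -0.09. Dusp5, a phosphatase of nuclear ERK, had 138 and 141 CPM in HACY and 92.8 and 89.0 in CCL4 (log2 0.62, SE 0.12, edgeR adjusted p = 0.0198). Dusp4, of the same family, had -0.62 (SE 0.15, adjusted p = 0.0421), and Zfp36l2, a paralog of Zfp36, had -0.54 (SE 0.14, 0.0442). Spry4, an inhibitor of receptor kinase signalling, had -0.83 (SE 0.22, 0.0547). Dusp5, Dusp4 and Zfp36l2 did not pass after removal of HACY replicate 1 (log2 0.62, -0.60 and -0.64) or of HACY replicate 2 (0.60, -0.65 and -0.46). Zfp36l2 also failed after removal of CCL4 replicate 1 (-0.54).

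Heat shock genes of dissociation signatures held no call in 10 by edgeR with TMM scaling (3 positive and 2 negative at an unadjusted p below 0.05) and 1 fall by DESeq2 (Hspb1), with a median of 0.09. Hspb1 also passed in edgeR with no filter (adjusted p = 0.0349) and with library size alone (0.0215), as did Hspa1b with library size alone (0.0447). Hspb1 had -0.58 (SE 0.16, edgeR adjusted p = 0.0616), Hspa1b -0.61 (SE 0.20, 0.0996), Hsp90aa1 0.39 (SE 0.12, 0.0768) and Hsp90ab1 0.35 (SE 0.12, 0.109). The inducible Hspa1a had 1.57 to 2.18 CPM over all 4 libraries. Of 17 upstream kinases and factors none was called by edgeR with TMM scaling or by DESeq2 (2 positive and 1 negative at an unadjusted p below 0.05; median 0.06). Creb1 passed without CCL4 replicate 2 (-0.68, edgeR adjusted p = 0.0177) and with GC content and length offsets (-0.54, 0.0444), where Srf, the factor that binds CArG boxes, also passed (0.50, 0.0276; chosen after its values were seen). With TMM scaling and no offsets, Srf had 0.03 (SE 0.16, edgeR adjusted p = 0.928), and with upper quartile scaling -0.03. Mapk14, the p38 alpha kinase, had 0.38 (SE 0.12, edgeR adjusted p = 0.0872), Elk3 0.33 (SE 0.13, 0.135), Creb1 -0.46 (SE 0.19, 0.157) and Mkl2 0.19 (SE 0.12, 0.328). Over the 6 lists together, removal of HACY replicate 1 left 0 rises and 2 falls, removal of HACY replicate 2 left 3 and 2, and removal of CCL4 replicate 2 gave 13 and 12.

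**Figure D5:**
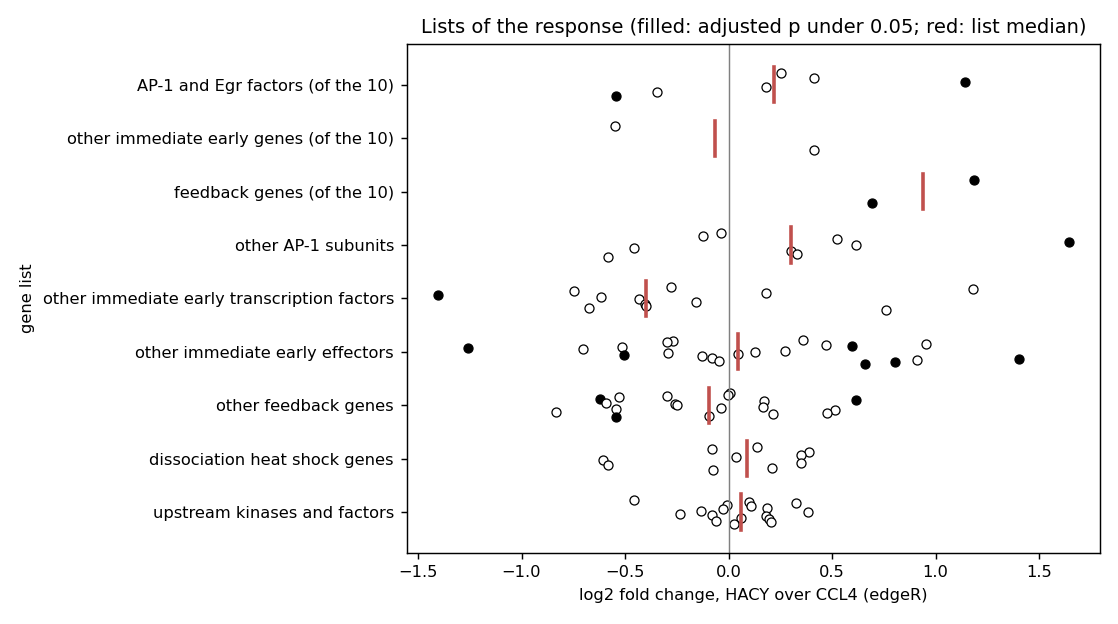
Log2 fold changes of HACY over CCL4 for the 10 genes in their 3 classes and for the 6 further lists. Each point is a gene, filled where the edgeR adjusted p is below 0.05, and red bars are list medians. The feedback genes Dusp1 and Zfp36 stand at 1.18 and 0.69, while the 19 other feedback genes have a median of -0.09 and the heat shock list has no filled point.

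Markers of several cell types moved with treatment. The sort marker Cd24a had 21.9 and 19.4 CPM in HACY and 20.7 and 38.0 in CCL4, and the hepatocyte gene Alb had 24000 and 30360 against 6971 and 5497. Of all tested genes, 8.19% rose and 3.54% fell. Hepatocyte markers rose in 8 of 10 cases, with a summed level of 27290 to 34250 CPM in HACY and 6789 to 8236 in CCL4. Alb was most of that sum, and Hnf4a overlapped between groups (78.3 and 142.5 CPM in HACY, 112.9 and 114.2 in CCL4). Macrophage markers rose in 9 of 10, with sums of 2705 to 3817 and 1079 to 1475 CPM. Endothelial markers had 3 rises and 1 fall in 10 (1078 to 1419 and 478 to 803 CPM), and biliary and progenitor markers 1 and 1 in 9 tested (2972 to 4274 and 1222 to 2276 CPM). Neutrophil markers summed to 48.1 to 51.7 CPM in HACY and to 44.0 and 263 in CCL4 replicates 1 and 2, with 1 fall in 8 tested. Stellate markers had no call in 9 tested (558 to 685 and 328 to 795 CPM). B cell (43.9 to 57.4 and 35.4 to 37.6 CPM, 1 rise) and T and NK cell markers (4.92 to 5.73 and 2.38 to 3.10 CPM, no call) were low. Red cell precursor markers summed to 175 to 180 and 131 to 132 CPM, with no call in 4 tested. Most of that sum was Tfrc alone, at 170 and 169 CPM in HACY and 129 and 127 in CCL4. Rhag, a membrane protein of red cells, had 0 counts. The part of these marker differences in the values of the 10 genes was not tested.

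The mean profile of the 10 genes, each centred on its own mean log2 CPM, was 0.181 and 0.10 in HACY and -0.136 and -0.145 in CCL4. Of 10682 genes outside the lists with at least 5 CPM, the closest to it by Euclidean distance over the 4 libraries were Dhx40 (0.0153), Cpne2 (0.0199), Atp7a (0.0211), Rnf130 (0.0233) and Rnf135 (0.0322). The 10 genes themselves lay farther from this profile, from 0.165 (Atf3) to 0.931 (Dusp1). The profile averages genes that rose and fell, so closeness to it is not likeness to a member.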

How the data were processed

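Stranded paired-end mRNA libraries were sequenced, per the labels' protocols. Each deposited table pairs raw read counts per gene symbol with FPKM, both calculated by the authors, per the file headers. Trimmomatic, HISAT2, Cufflinks, HTSeq, DESeq and the build mm10 are named per the submitters' processing notes; for versions, annotation and strand setting the sources used here give nothing. Locations are GENCODE M21 (GRCm38) and promoters RefSeq GRCm38.p6.

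Counts were tested with edgeR 4.0.16 (R 4.3.3): filterByExpr (minimum count 10), TMM, robust quasi-likelihood, two-sided, treatment as the only term, Benjamini-Hochberg adjustment over 13428 genes, threshold 0.05, and tested on simulated data. Standard errors are the log2 fold change over the square root of F, and 95% intervals use them with the test's degrees of freedom. Log2 CPM used a prior count of 2. Alternatives were DESeq2 1.42.0, limma-voom (limma 3.58.1), scaling by library size alone, by RLE or by the upper quartile, no filter, a stricter filter (50 counts), a replicate block, GC content and length offsets (splines, 96.8% of genes), limma on log2(FPKM + 1) for genes of at least 1 FPKM, and each library left out. With 1 library left out, the lone library of a group is assumed to vary like the other group.

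Replicates differed by more than sampling noise (chi-square per degree of freedom 19.0 and 34.0). In 27 rows the symbol had become a date (at most 0.2% of counts). A count of 0 allows up to 3 counts, covering counting error only. Genes named are the 10, up to 4 per further list with the smallest p, and the 5 closest profiles. The members and lists were chosen with earlier results of these data known.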

Additional observations from a re-analysis of the deposited data

How the results depend on the processing

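The number of called genes was 1576 and ranged from 629 to 3047 when 1 library was left out (629 without HACY replicate 1, 780 without HACY replicate 2, 3047 without CCL4 replicate 2). Of the 10 genes 4 were called. There were 2 on log2(FPKM + 1), Dusp1 and Junb, and 1 to 5 with a library left out: 1 without HACY replicate 1 (Dusp1), 2 without HACY replicate 2 (Fos and Dusp1) and 5 without CCL4 replicate 2. Of 140 fold changes under alternatives, 119 kept direction and side of the threshold, 14 lost a call, 6 gained one and 1 changed sign, Fosb, at -0.064 without CCL4 replicate 1 and 0.48 without CCL4 replicate 2. The log2 difference in the ratio of factors to feedback genes was -1.18 for summed CPM, -0.81 without Egr1 and -0.79 without Fosb and Atf3, and -0.78 to -0.75 with a library left out. The causes were not tested. Same-numbered libraries shared only a number (correlation of deviations -0.0989), and a replicate block left 1224 called genes and 2 of the 10, Dusp1 and Zfp36, with Fos at an adjusted p of 0.0610 and Junb at 0.0517. With 2 libraries a group an exact permutation test of 1 value could not pass the threshold, so each call rests on edgeR's spread shared across genes.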
